A study of Capra hircus with 3 samples.

Results

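Small RNAs of goat skin in telogen, when the hair follicle rests, were compared with those in catagen, when the lower follicle regresses. All distinct read sequences, here called tags, with 10 or more reads in either library were taken. This gave 87970 of the 3090265 distinct tags of the catagen and telogen libraries, and of the 4043974 of the whole series of 3 libraries. The skin had been taken from the flank of untreated, adult Shanbei White cashmere goats of both sexes, and each library was made from the mixed skin of 10 goats. There was 1 library per stage, so no spread between animals or libraries is known, and every test below compares these libraries, not the stages. Anagen, the growth stage, enters only as a value beside the others. Whole skin was used, so fewer cells of a type and less RNA per cell cannot be told apart.

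The hair follicle passes through growth, regression and rest, and regression removes much of the lower follicle by cell death, after which the dermal papilla lies close to the stem cells of the resting follicle. A miRNA is cut from an arm of a hairpin precursor, the 5p or the 3p arm, and pairs with target mRNAs mainly through its seed, bases 2 to 8 from the 5′ end. Cutting and later trimming or tailing give several versions of a miRNA, called isomiRs: a moved 5′ end changes the seed, whereas a moved 3′ end leaves it as it was. Pieces of tRNA and rRNA are cloned beside miRNAs in such libraries, and a tRNA piece may be a stable product of cleavage or a product of decay.

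The sequences below are the leading tags of the miRNAs on which the comparison turned, read from the deposited tags and written 5′ to 3′ with the seed in capitals. Let-7 miRNAs make up the most abundant family of this skin and share the seed GAGGTAG.
let-7a-5p: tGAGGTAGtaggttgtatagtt
let-7b-5p: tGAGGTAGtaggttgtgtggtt
let-7f-5p: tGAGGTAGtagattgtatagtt
let-7i-5p: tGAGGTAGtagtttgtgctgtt
MiR-1 and miR-206, both found in skeletal muscle, share the seed GGAATGT. The leading miR-133a tag starts 1 base later than the leading miR-133b tag, which shifts its seed by 1 base.
miR-1-3p: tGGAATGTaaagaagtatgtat
miR-206-3p: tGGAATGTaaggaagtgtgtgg
miR-133a-3p: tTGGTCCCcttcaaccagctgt
miR-133b-3p: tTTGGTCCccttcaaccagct
MiR-144 and miR-451, made from 1 precursor transcript in red blood cell precursors, have different seeds.
miR-144-3p: tACAGTATagatgatgtactct
miR-451: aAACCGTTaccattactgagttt
The tags that were higher in telogen and are described most fully come from a myeloid miRNA and the 3p arm of an epithelial miRNA. Others come from a relative of the fat cell miRNA miR-193b and the minor arms of 2 let-7 hairpins. MiR-205-5p, the other arm of the epithelial miRNA, differed little and is shown for its sequence.
miR-223-3p: tGTCAGTTtgtcaaataccccat
miR-205-5p: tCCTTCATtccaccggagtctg
miR-205-3p: gATTTCAGtggagtgaagct
miR-193a-3p: aACTGGCCtacaaagtccca
let-7b-3p: cTATACAAcctactgccttcct
let-7d-3p: cTATACGAcctgctgcctttct

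The catagen library held 18111912 clean reads and the telogen library 27016012, against 15997828 in anagen. One read was worth 0.0552 reads per 1000000 clean reads (rpm) in catagen and 0.037 rpm in telogen. The members held 91.4% of the catagen reads and 90.2% of the telogen reads. Reads under 18 nt, which were removed before deposit, had been 2.66% of the high-quality reads in catagen, 0.566% in telogen and 3.38% in anagen. The library with the smallest share removed also had the smallest share of reads in member tags of 18 and 19 nt, while the median share of tags of 20 nt or less within 46 miRNA arms was smallest in catagen. The part of this step in the results on short tags was not tested. Intervals in brackets are 95% intervals that cover counting error only, since PCR reads are not independent molecules.

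The length profile of the members moved towards the middle in telogen. Tags of 22 nt, the usual miRNA length, held 37.6% of the clean reads in catagen and 30.8% in telogen. Tags of 23 to 29 nt held 32.8% in catagen and 41.7% in telogen, a log2 ratio of telogen over catagen of +0.35 (+0.35 to +0.35). Both ends of the profile were smaller in telogen. Tags of 18 and 19 nt went from 2.85% to 1.95%, a log2 ratio of -0.55, and tags of 30 to 34 nt from 5.71% to 3.99%, a log2 ratio of -0.52. From 31 to 38 nt the ratio was lower with each added base, at -0.57 at 31 nt, -0.92 at 32 nt, -1.68 at 33 nt, -2.39 at 34 nt and -4.33 at 38 nt. Tags of 35 to 44 nt were 11.0-fold lower in telogen (20945 reads in catagen, 2837 in telogen), and anagen stood with catagen (0.111% and 0.116% of reads, against 0.0105% in telogen). Small RNAs of 18 to 30 nt had been cut from a gel before cloning, and a cut at a different height and a different RNA content cannot be told apart from 1 library per stage.

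**Figure D1:**
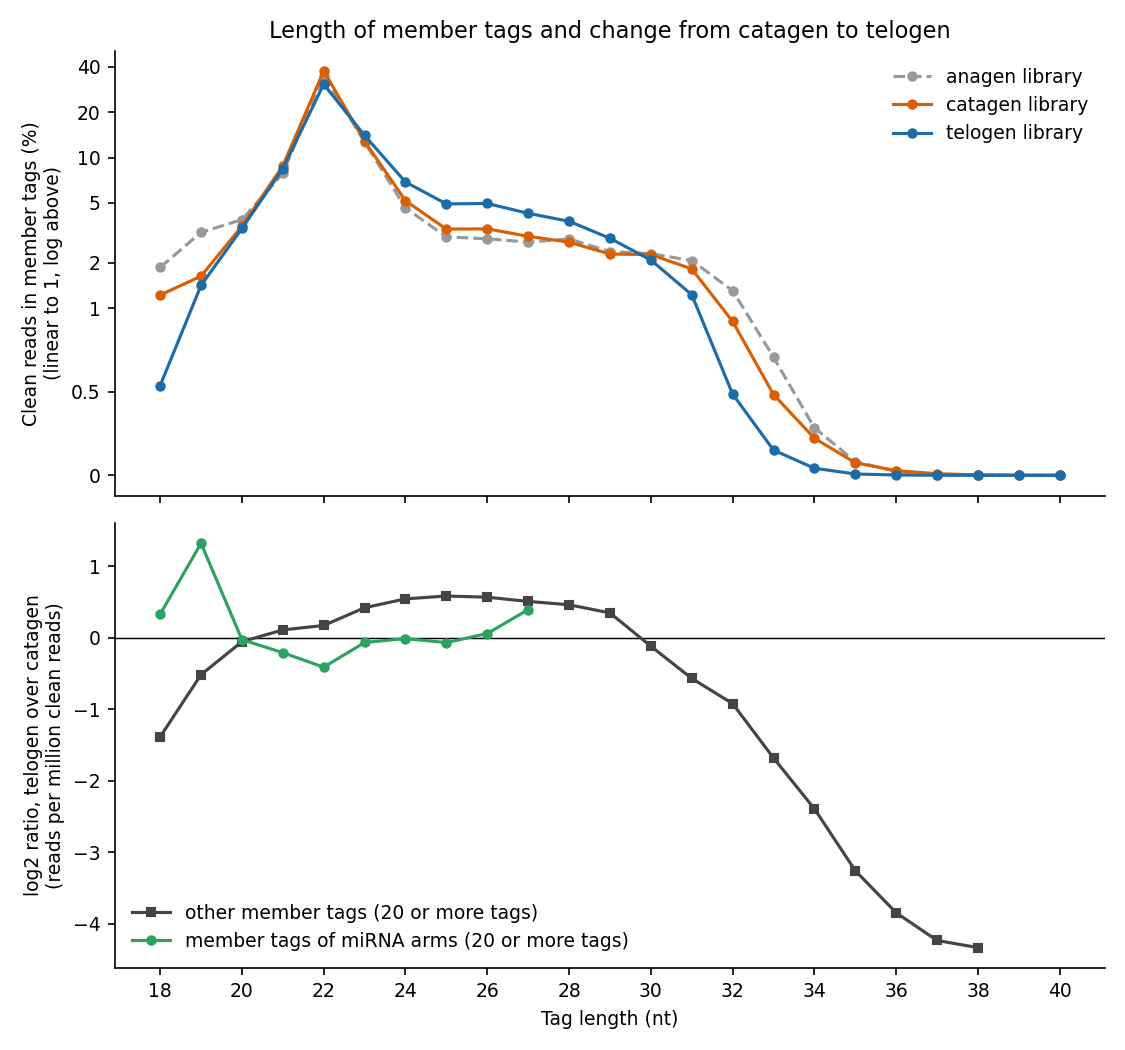
Upper panel: share of clean reads (%, linear up to 1% and logarithmic above) in member tags of each length (nt) in anagen, catagen and telogen. Lower panel: log2 ratio of telogen over catagen for tags of miRNA arms and for other member tags, at lengths with 20 or more such tags; the other tags go from -1.39 at 18 nt to above 0 between 21 and 29 nt, and miRNA tags stand at +1.32 at 19 nt and -0.41 at 22 nt.

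miRNA tags and other tags of the same length did not move together. At 19 nt the miRNA tags had a log2 ratio of +1.32 and the other tags one of -0.52. At 18 nt these ratios were +0.33 and -1.39. At 22 nt the order was the other way round, -0.41 for miRNA tags and +0.17 for other tags. In all, 3773 tags belonged to miRNA arms, and they held 46.1% of the clean reads in catagen, 37.7% in telogen and 46.5% in anagen. The muscle miRNAs described below took part in this difference: without them the miRNA tags held 38.2% in catagen, 35.5% in telogen and 46.1% in anagen. The share of 22-nt tags without them was 30.5% in catagen and 28.9% in telogen.

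A tag or arm was called where the log2 ratio of its rpm was above 1 or below -1, which is a difference of more than 2-fold, and the exact test of Audic and Claverie on the reads of the libraries gave a p under the limit of 0.01. Of all member tags, 29.2% were called (25668), 17.6% higher in telogen (15497) and 11.6% lower (10171). The median log2 ratio of all members was +0.34. The minimum of 10 reads is 0.552 rpm in catagen and 0.37 rpm in telogen, so a scarce tag entered more easily through telogen. A tag with 10 or more reads in 1 library and none or few in the other had to differ, so these shares describe the list and the libraries. Tags at 0 in catagen numbered 2275, and 1459 were at 0 in telogen. Among miRNA tags 7.02% were called higher and 10.9% lower, with a median of -0.05. Scaled to the reads of miRNA arms in place of all clean reads, every ratio moved up by the same amount, the median of all members was +0.63, and the calls split into 22252 higher and 7869 lower. That total includes the muscle miRNAs. The log2 ratio of the miRNA reads was -0.29 with them and -0.11 without, so the size of the shift depends on them.

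The miRNA tags were grouped into 305 arms of 224 miRNAs, of which 256 arms reached 1 rpm in either library and were tested. Of these, 16.4% were called (42), with 8.2% higher in telogen (21) and 8.2% lower (21). Most arms lay near the centre: 211 arms (82.4%) were within 2-fold, and the median log2 ratio was -0.11, with quartiles of -0.44 and +0.30. Under the scaling to miRNA reads, muscle arms included, that median was +0.18, and 33 arms were called higher and 17 lower. Among the 111 arms with 1000 or more reads, 4 were called higher and 9 lower. Were a biological coefficient of variation of 0.4 assumed between such pooled libraries, 4 arms would be called, 1 higher and 3 lower (edgeR).

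**Figure D2:**
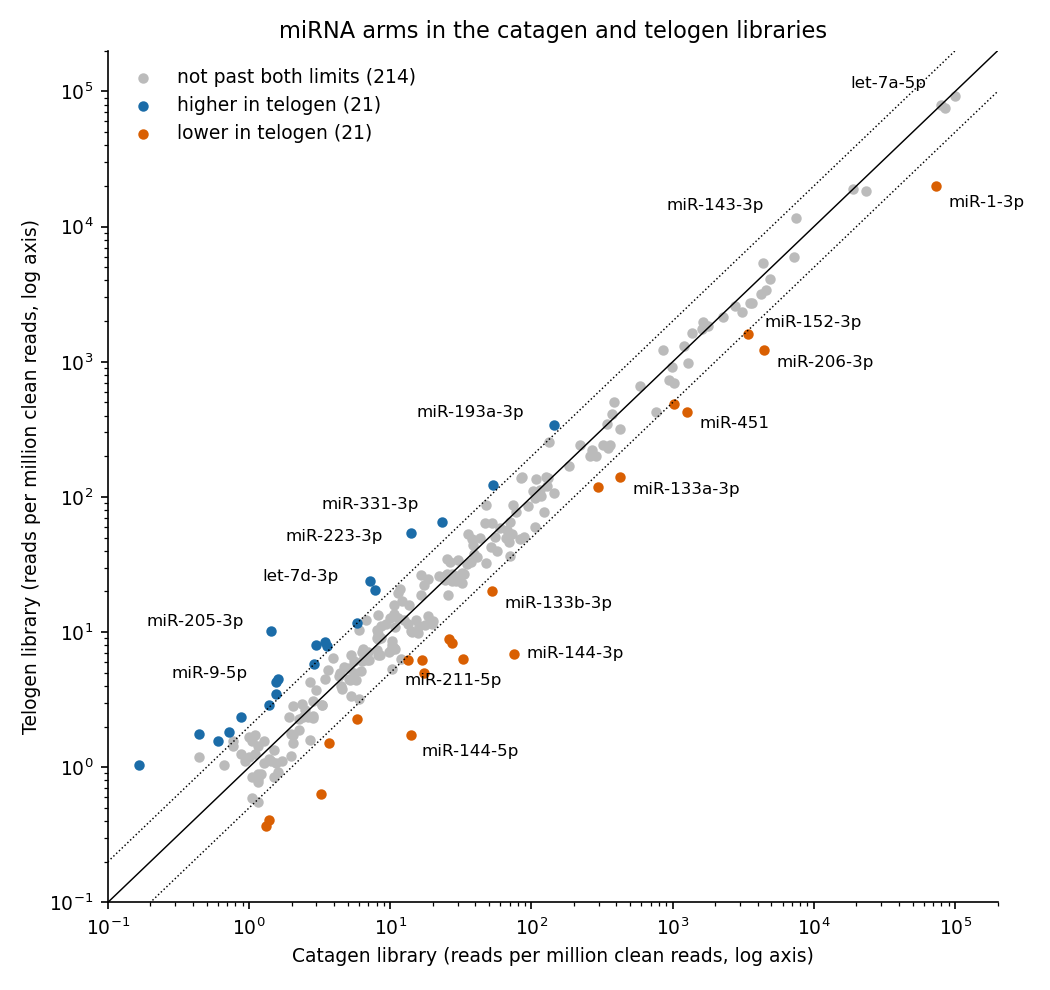
Each point is a tested miRNA arm, with its level in the catagen library (rpm, logarithmic axis) against that in the telogen library (rpm, logarithmic axis); arms called higher are blue, called lower orange and the others grey. The solid line marks equal levels and the dotted lines the 2-fold limits; miR-1-3p, at 73741 and 19955 rpm, is the called arm farthest to the right, and let-7a-5p lies close to the solid line.

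The 10 assigned arms with the most reads held 87.5% of the reads assigned to miRNA arms in catagen and 87.9% in telogen. Let-7g-5p is left out, as its main tag stands among the tags without an annotation. That tag had 135427 reads in catagen and 169137 in telogen. This was more in each library than miR-320a, 1 of the 10, with 131722 and 161195 reads. Let-7a-5p was at 99381 rpm in catagen, 91829 rpm in telogen and 133563 rpm in anagen, a log2 ratio of -0.11 (-0.12 to -0.11). Let-7b-5p stood at 79867 rpm in catagen and 79995 rpm in telogen, and its interval held 0 (-0.00073 to +0.0053). Let-7f-5p had a log2 ratio of -0.17 and let-7c-5p one of 0.00. The 6 tested arms with the let-7 seed, let-7g-5p not among them, summed to 287368 rpm in catagen and 270465 rpm in telogen, a log2 ratio of -0.09. The assigned part of the most abundant family thus differed little between these libraries. Of 9 tested arms of the let-7 list, which also holds minor arms, 2 were called higher and none lower, with a median of 0.00 that was +0.29 under the scaling to miRNA reads. MiR-143-3p, the miRNA of smooth muscle that is also found in fibroblasts, had 7462 rpm in catagen and 11495 rpm in telogen, a log2 ratio of +0.62 that did not reach the 2-fold limit. MiR-26a-5p was at +0.30, miR-320a at -0.29, miR-140-3p at -0.24 and miR-199a-3p, a miRNA of dermal fibroblasts, at -0.35.

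Muscle miRNAs were lower in telogen. MiR-1-3p had 1335595 reads in catagen (73741 rpm), 539106 in telogen (19955 rpm) and 62275 in anagen (3893 rpm), a log2 ratio of -1.89 (-1.89 to -1.88). MiR-206-3p, of the same seed, went from 4410 rpm to 1225 rpm, with 191 rpm in anagen and a log2 ratio of -1.85. In both, catagen was highest, telogen lay between and anagen was lowest. MiR-133a-3p had 426 rpm in catagen and 140 rpm in telogen (log2 ratio -1.60), and miR-133b-3p had 52.8 and 20.1 rpm (-1.40). The leading miR-133b tag is also the first 21 bases of the miR-133a-3p tag that starts 1 base early. Its reads may come in part from miR-133a, so these 2 arms are not independent. All 5 tested arms of the muscle list were called lower, with a median of -1.60 beside -0.11 over all arms, and 4 of 5 were called lower under the scaling to miRNA reads. Summed over the muscle arms, catagen held 78635 rpm, telogen 21343 rpm and anagen 4109 rpm. How much muscle lay below the skin that was taken is not given in the sources used here, and its part in the difference was not tested.

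MiRNAs of red blood cells were also lower. MiR-144-3p, a regulator in red cell precursors, had 1354 reads in catagen (74.8 rpm), 187 in telogen (6.92 rpm) and 1641 in anagen (103 rpm). This was a log2 ratio of -3.43 (-3.66 to -3.21), the lowest of the called arms with at least 100 reads. The other arm of the hairpin, miR-144-5p, went from 255 to 47 reads (-3.02). MiR-451, which is cut by Argonaute 2 without Dicer, had 1256 rpm in catagen and 428 rpm in telogen (-1.55). MiR-486-5p had 765 rpm in catagen and 429 rpm in telogen, a log2 ratio of -0.84 that was not called. The list thus held 3 arms called lower of 4 tested, with a median of -2.29, and summed to 2110 rpm in catagen, 865 rpm in telogen and 1291 rpm in anagen. The tags of miR-144-3p did not all move by the same amount: its 22-nt leading tag had 780 reads in catagen and 25 in telogen (-5.54), and its 20-nt tag had 117 and 53 reads (-1.72).

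Among immune miRNAs, 2 were higher in telogen. MiR-223-3p, a miRNA of neutrophils and other myeloid cells, had 254 reads in catagen (14.02 rpm), 1460 in telogen (54.0 rpm) and 143 in anagen (8.94 rpm). Telogen was the highest of the 3 libraries, with a log2 ratio over catagen of +1.95 (+1.75 to +2.14). MiR-146a-5p, a brake on innate immune signalling, had 5.797 rpm in catagen, 11.7 rpm in telogen and 11.4 rpm in anagen, so catagen was its low library. Its log2 ratio was +1.01, with an interval that spans the 2-fold limit (+0.69 to +1.34). The other 4 immune arms were not called: miR-142-3p at +0.59, miR-146b-5p at +0.26, miR-142-5p at +0.22 and miR-155-5p at -0.45. The list had 2 arms called higher of 6 tested and a median of +0.43, beside 8.2% called higher and a median of -0.11 over all tested arms.

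The tested arms of the epithelial list differed little apart from 1 minor arm. MiR-203, miR-200a and miR-200c, also on that list, had no tested arm, and miR-200b had only its 5p arm. The copy of the annotation used to assign arms is shortened, so a missing arm does not show that the miRNA was scarce. MiR-205-5p, an abundant miRNA of the epidermis and the outer root sheath, was at 1780 rpm in catagen, 1849 rpm in telogen and 986 rpm in anagen, a log2 ratio of +0.05. Its other arm, miR-205-3p, had 26 reads in catagen (1.44 rpm), 277 in telogen (10.3 rpm) and 211 in anagen (13.2 rpm). The log2 ratio of miR-205-3p was +2.84 (+2.25 to +3.48), the highest of the named arms, and it was the only call of the 7 tested arms. MiR-31-5p, which is known from the growth stage of the mouse follicle, was at +0.68, miR-429-3p at +0.37, miR-141 at +0.06, miR-184 at -0.02 and miR-200b-5p at -0.04. The median of the list was +0.06.

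MiR-193a-3p, placed in the list of fat cell miRNAs, had 144 rpm in catagen, 338 rpm in telogen and 230 rpm in anagen, a log2 ratio of +1.23 (+1.17 to +1.30). On tags of 21 nt or longer the ratio was +0.55 and the arm was not called. It was the only call among the 8 tested fat arms, whose median was +0.19. MiR-193b-3p, with the same seed, was at +0.39, miR-455-3p at +0.72 and miR-365-3p at -0.41. In the dermal fibroblast list 1 of 4 arms was called: miR-152-3p, at 3400 rpm in catagen and 1613 rpm in telogen, a log2 ratio of -1.08 that fell within 2-fold under the scaling to miRNA reads. MiR-21-5p was at -0.43, and the list median was -0.39. MiR-29a entered this list by an arm of only 37 reads in catagen and 77 in telogen (+0.48). The main tag of miR-29a-3p stands among the tags without an annotation, described below. MiR-211-5p, the melanocyte miRNA encoded within TRPM1, had 302 reads in catagen and 169 in telogen (-1.41), while miR-204-5p, which shares much of its sequence, had 333 and 670 reads (+0.43).

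MiR-9-5p, a miRNA of neural tissue, had 28 reads in catagen, 116 in telogen and 6 in anagen (+1.47, +0.87 to +2.12), a call that was lost on listed tags only (+0.69). The other 3 arms of the sensory and neural list were not called, with a list median of +0.27. None of the 3 smooth muscle arms (median +0.28), the 1 endothelial arm (miR-126, +0.20), the 2 liver arms (-0.18), the 6 arms of the miR-15 and miR-503 group that brakes the cell cycle (-0.33) or the 2 arms of the miR-34 group (+0.07) was called. The proliferation clusters, relatives of the miR-17 cluster, had 1 arm called higher of 7 tested, miR-93-3p with 13 and 49 reads, and a median of 0.00. The imprinted cluster, a run of miRNAs from the DLK1-DIO3 region, had 30 tested arms, 1 called higher and 3 lower, and a median of -0.18. Scaled to miRNA reads the median of that cluster was +0.11, that of the liver list +0.11 and that of the proliferation clusters +0.29, so no direction is given for them. The 3 lower arms of the cluster were miR-154c (5384 reads in catagen and 3201 in telogen, -1.33), miR-136 (25 and 11 reads) and miR-410 (24 and 10 reads), and the higher one was miR-299-5p (63 and 228 reads, +1.28), which on its leading tag alone was at +0.71 and not called.

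**Figure D3:**
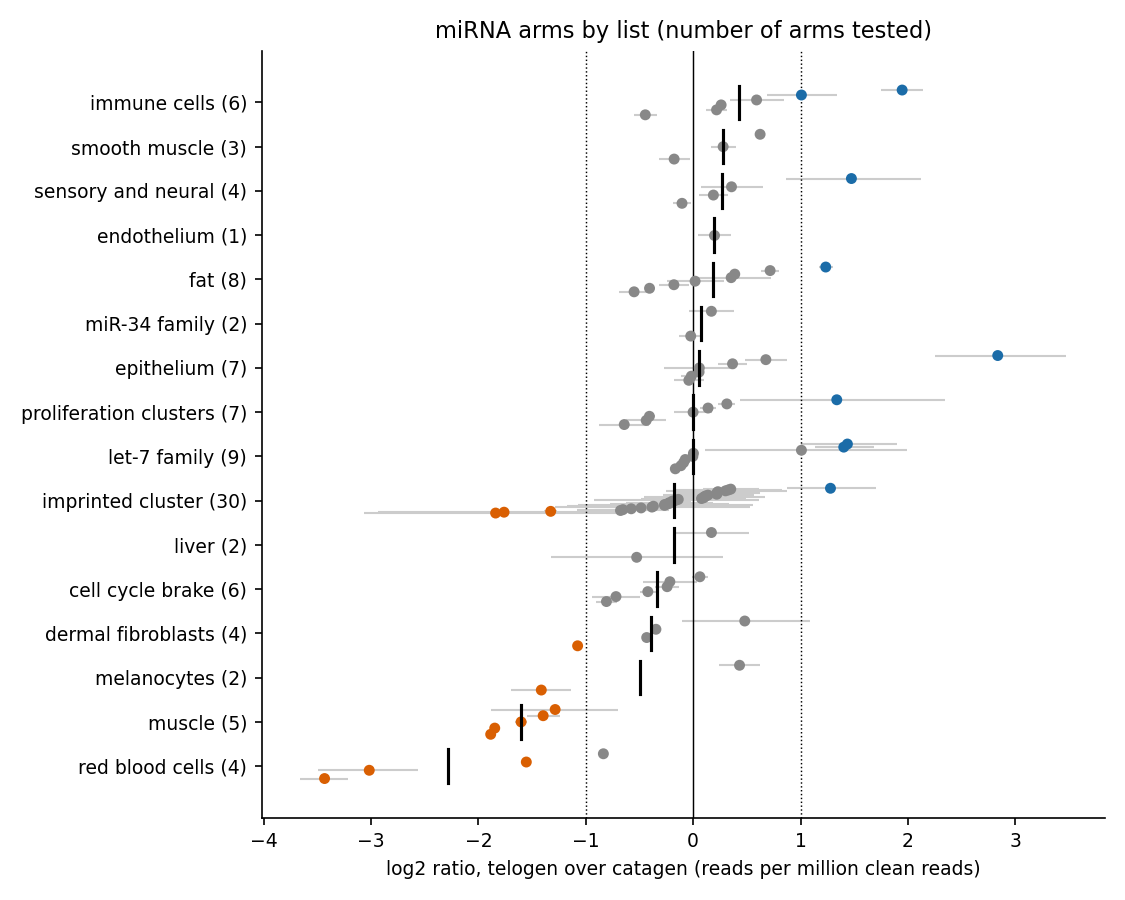
Log2 ratio of telogen over catagen of each tested arm, by list. Blue points were called higher in telogen, orange lower and grey neither; whiskers are exact 95% intervals of counting error, bars the list medians and dotted lines the 2-fold limits. All 5 muscle arms lie below the lower limit, and epithelial arms gather near 0 with miR-205-3p apart at +2.84.

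Of the other named arms, miR-331-3p was at +1.496 (421 reads in catagen, 1771 in telogen, 748 in anagen), miR-421 at -1.56 (474 and 239 reads), miR-1298 at -1.73 (496 and 223 reads), and miR-6529 at -2.36 (591 and 172 reads). MiR-2478 was at -1.80, but at -0.37 and not called on listed tags only, and its leading tag ends in CCA, the end that is added to every tRNA. A stretch of miR-2904 was at +1.73 (131 and 648 reads), and the main stretch of that miRNA has no fixed start: 64.0% of its catagen reads and 68.2% of its telogen reads began 1 to 3 bases from the leading tag.

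The minor arm of a hairpin is the strand that is mostly degraded. Over 56 miRNAs with a second arm compared, the second arm had the larger log2 ratio in 30. The median of the difference, second minus first, was +0.12. Some of these second arms were under 1 rpm in both libraries and so were not among the tested arms. One was that of miR-1, with 14 reads in catagen and 23 in telogen. In 10 pairs, that of miR-1 among them, the second arm exceeded the first by more than 1, and in 3 it was lower by more than 1. MiR-205 had the largest difference, +2.78, and the 3p arm rose from 0.0806% to 0.551% of the reads of both arms. Let-7b-3p had 54 reads in catagen and 218 in telogen (+1.44), beside a let-7b-5p at 0.00. Let-7d-3p had 141 and 556 reads (+1.40), with 338 in anagen, and no let-7d-5p arm was among those assigned, so the pair was not compared. For miR-130a the 5p arm had 29 and 121 reads (+1.48) and the main 3p arm was at -0.37. The opposite was seen for miR-331, where the main arm was at +1.496 and the 5p arm had 81 and 107 reads (-0.18).

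The leading tags of the deepest arms lay close to their arms, with let-7a-5p at -0.12, let-7f-5p at -0.15 and miR-1-3p at -1.96. Of 446 miRNA tags with 1000 or more reads, 30 were called higher (6.73%) and 43 lower (9.64%), shares near those of all miRNA tags. The 5 highest of these were all of 19 or 20 nt. They were the 20-nt tag of miR-193a-3p with 288 reads in catagen and 3910 in telogen (+3.19), 20-nt tags of miR-140-3p from both of its starts (+2.88 and +2.39), the 19-nt tag of miR-26a-5p with 123 and 982 reads (+2.42) and the 19-nt tag of let-7c-5p with 428 and 3141 reads (+2.30). In anagen these tags had 2181, 1752, 2126, 1462 and 5307 reads in a smaller library, so that catagen was the library with few of them. The 5 lowest were 2 tags of let-7 that start 1 base late, the 22-nt tag of miR-154c (3601 and 591 reads, -3.18), the 21-nt tag of miR-451 (879 and 252 reads, -2.38) and the 20-nt tag of miR-1-3p (18094 and 5782 reads, -2.22).

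To follow the 3′ ends, tags that share their first 18 bases were taken as a family, in which the library total cancels. There were 478 families with 10000 or more reads, of which 49 were of miRNAs. The mean length of the miRNA families changed by a median of -0.01 nt, and 27 of the 49 moved by less than 0.1 nt. Only 3 moved by more than 0.5 nt, all of them towards shorter tags in telogen. Let-7i-5p went from a mean of 22.02 nt in catagen to 21.3 nt in telogen and was shortest in anagen, at 20.6 nt. Its 22-nt tag had 23474 reads in catagen and 21832 in telogen, while its 19-nt tag had 2504 and 15285 reads, and 24159 in anagen. Tags of 20 nt or less made up 9.40% of the let-7i-5p family in catagen, 32.8% in telogen and 52.2% in anagen. MiR-193a-3p went from 21.6 to 20.9 nt and had 20.6 nt in anagen. The third was the miR-101-3p family that starts 1 base early, with a change of -0.54 nt.

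These were not isolated: in 32 of the 46 arms with 10000 or more reads the share of tags of 20 nt or less was larger in telogen than in catagen, and in 43 it was larger in anagen than in catagen. The median share over these arms was 1.64% in catagen, 2.57% in telogen and 6.02% in anagen. Some families moved the other way. MiR-221-5p was longer in telogen by 0.30 nt, miR-486-5p by 0.24 nt, and miR-103-3p by 0.15 nt. The miR-103-3p family, with 110195 reads in catagen and 102365 in telogen, also holds tags not assigned to that arm. The arm itself had 55636 and 63149 reads, and the part of this mixture in the change was not tested. The family of let-7a-5p, which shares its first 18 bases with let-7c-5p, changed by 0.01 nt and miR-1-3p by -0.01 nt, so the large drop of miR-1-3p went without a change of its mean length.

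**Figure D4:**
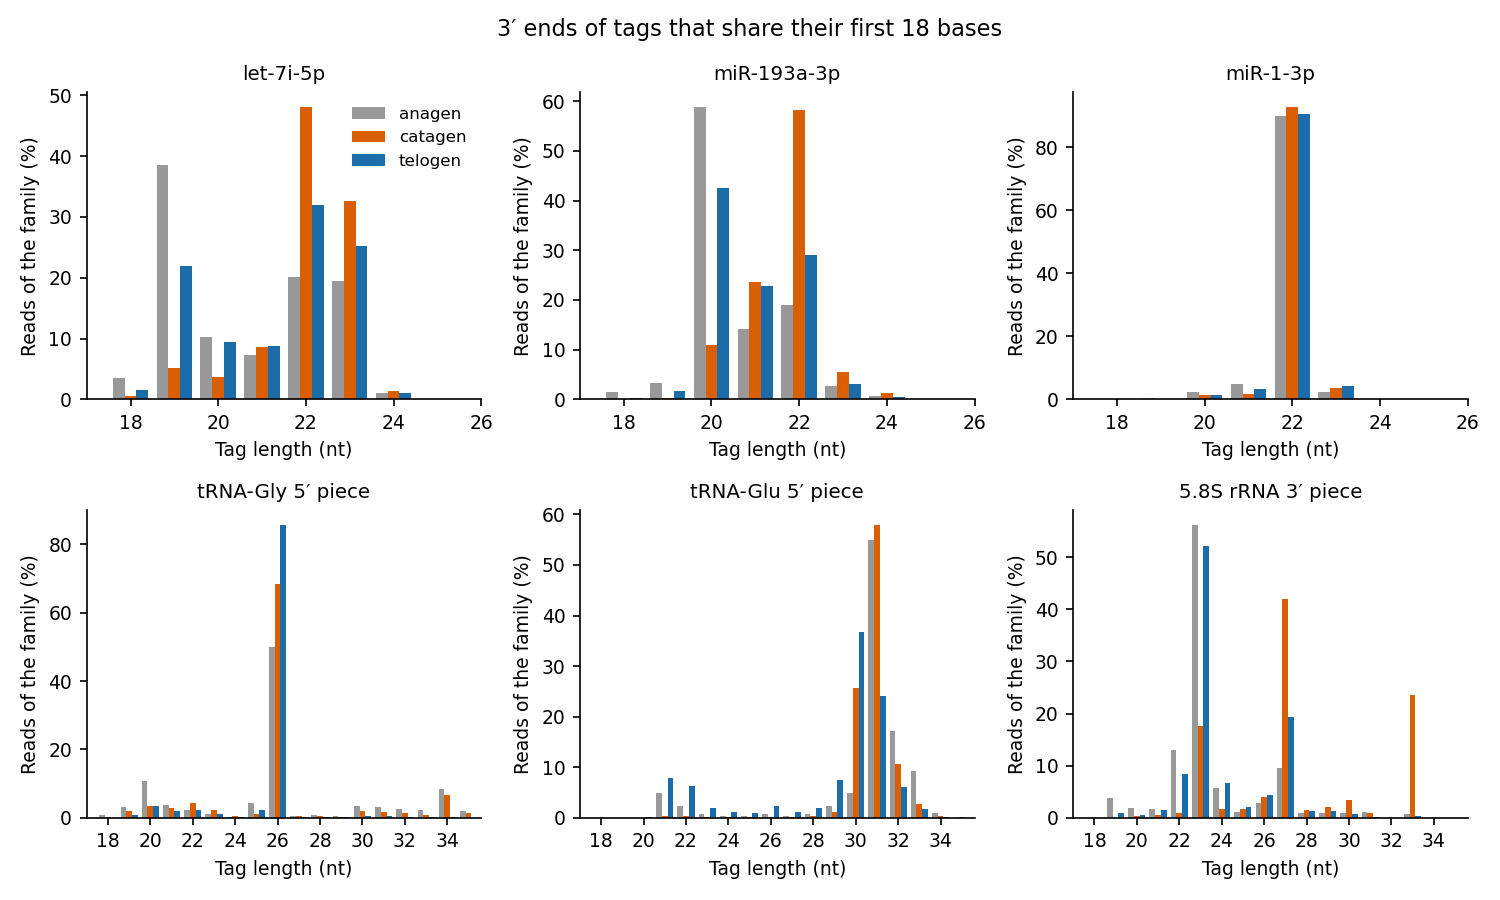
Share of the reads of a family (%) at each length (nt) in anagen, catagen and telogen, for families of tags that share their first 18 bases. In let-7i-5p the peak at 19 nt holds 5.14% of reads in catagen, 21.96% in telogen and 38.5% in anagen, and the tRNA-Glu piece moves from 31 nt in catagen to 30 nt and shorter in telogen.

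Bases at the 3′ end that the annotated sequence does not hold were on 13.8% of the miRNA reads in catagen and on 15.7% in telogen, and without the muscle arms on 15.5% and 16.1%. An added A made up 8.65% and 10.2%, and 9.85% and 10.7% without the muscle arms. An added T, the sequenced form of U, made up 4.03% and 4.42%, but 4.78% and 4.66% without them. Of 46 arms, 24 had a larger share in telogen and 20 a smaller one. MiR-130a-3p went from 46.7% to 20.2%, miR-143-3p from 32.7% to 27.8% and let-7i-5p from 34.6% to 26.95%. MiR-486-5p went from 23.01% to 35.02%, and miR-152-3p from 44.8% to 53.0%. No hairpin sequence was at hand, so a base counted as added may in part be encoded.

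The 5′ end, which sets the seed, was steadier. In catagen 2.94% of the miRNA reads started 1 to 3 bases from the leading tag, and in telogen 2.81%. Reads of let-7 5p arms that lacked the first T were 0.0957% of their reads in catagen (4982 reads), 0.0117% in telogen (858 reads) and 0.151% in anagen, and the share was smaller in telogen in all 6 of these arms. The tags concerned are shown here with the shifted seed in capitals.
let-7f-5p start +1: gAGGTAGTagattgtatagtt
let-7a-5p start +1: gAGGTAGTaggttgtatagtt
The let-7f tag had 1788 reads in catagen, 208 in telogen and 3240 in anagen, a log2 ratio of -3.68 (-3.89 to -3.47), and the let-7a tag had 956, 127 and 2132 reads (-3.49). Summed over all other arms, the shifted share was 7.54% in catagen and 9.84% in telogen, but miR-1-3p, with 0.0393% and 0.0135% shifted reads, holds a different part of that sum in each library. Without the muscle arms the direction turned, to 13.6% in catagen, 12.2% in telogen and 12.2% in anagen. Of the 40 other arms with 10000 or more reads, 20 were less shifted in telogen and 14 more. MiR-140-3p, a miRNA of cartilage and other mesenchyme, had the largest change of start. Tags that begin 1 base early held 45.6% of its reads in catagen, 36.0% in telogen and 28.5% in anagen. Both forms are given with their seeds, which overlap by 6 bases.
miR-140-3p: aCCACAGGgtagaaccacggac
miR-140-3p start -1: tACCACAGggtagaaccacgg
MiR-133a-3p tags that begin 1 base early, and so carry the seed of miR-133b, were 34.8% of the reads of the arm in catagen and 37.3% in telogen. The leading tags of the later and the earlier start had log2 ratios of -1.74 and -1.58, so both forms were lower in telogen.

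Reads with 1 changed base were unevenly spread over the positions of the tags. For abundant tags, reads that differ by 1 base were counted at each position from 1 at the 5′ end of the tag. At position 5 there were 5.90 such reads per 10000 reads of the tag in catagen, 34.9 in telogen and 7.06 in anagen. At position 6 there were 9.60 in catagen and 20.98 in telogen, and at position 4 there were 6.87 and 6.91. Position 9 was high in every library, at 34.7 in catagen, 38.9 in telogen and 44.6 in anagen. All 12 kinds of change at position 5 were more frequent in telogen, by 1.51-fold for G5T to 37.4-fold for G5A. Of 85 deep tags with G at position 5, all 85 had more G5A reads in telogen than in catagen, with a median of 21.2 per 10000 in telogen (13.2 to 40) and 0.566 in catagen (0 to 5.27). The rate was about the same in miRNA tags and other tags, medians of 21.2 and 22.1 in telogen. As position 5 lies within the seed, such tags would read as let-7 with another seed.
let-7a-5p G5A: tgagAtagtaggttgtatagtt
let-7f-5p G5A: tgagAtagtagattgtatagtt
Here the capital marks the base that differs. The let-7a tag had 66 reads in catagen, 3986 in telogen and 196 in anagen, and the let-7f tag had 54, 3567 and 234 reads.

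**Figure D5:**
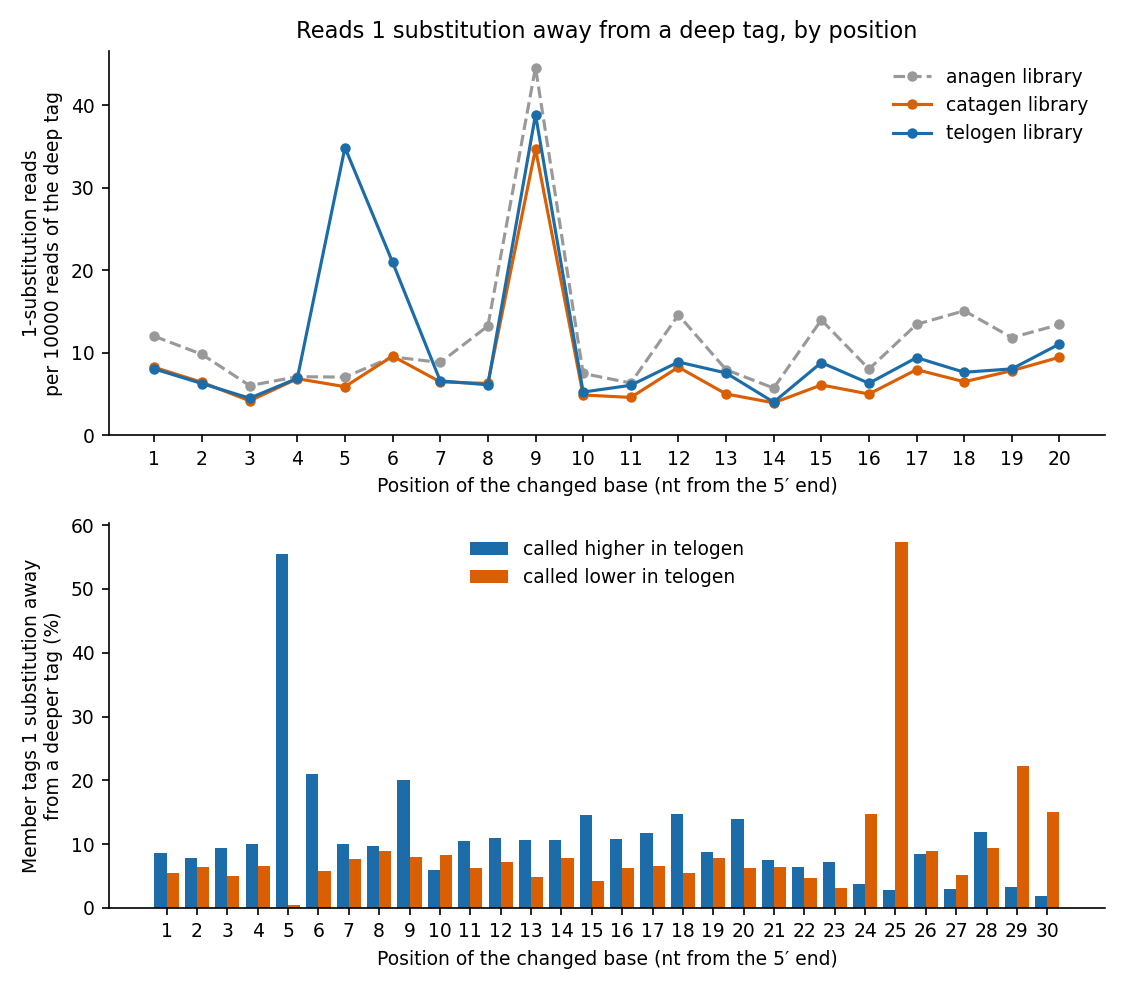
Upper part: reads with 1 changed base per 10000 reads of the abundant tag, by position from the 5′ end, in each library. Lower part: share of member tags that differ at that position from a tag at least 50 times deeper and were called higher or lower in telogen; position 5 has 55.5% called higher and position 25 has 57.4% called lower.

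This touched the calls. Among members, 11648 tags differed by 1 base from a tag at least 50 times deeper. Of the 1173 that did so at position 5, 651 were called higher in telogen (55.5%) and 5 lower. Of the 477 at position 25, 13 were called higher and 274 lower (57.4%). The change A25C alone accounted for 262 of these, all of the called tags among 272, with 9939 reads in catagen, 1608 in telogen and 168 in anagen. At all positions but 5 and 25, 10.2% of 9998 such tags were called higher and 7.02% lower, beside 17.6% and 11.6% of all members.

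Tags without a miRNA annotation made up most of the members, 84076, and held 44.9% of the clean reads in catagen and 52.3% in telogen. Of them 15227 were called higher and 9737 lower, with a median of +0.37. Scaled to their own reads, the split was 11616 higher and 12488 lower. By first base their log2 ratio was +0.30 for A, +0.26 for C, +0.22 for G and +0.14 for T. The 4040 tags that end in CCA, as mature tRNAs do, had a log2 ratio of -0.17, with 243 called higher (6.01%) and 559 lower (13.8%). Over all tags without an annotation these shares were 18.1% and 11.6%. Some of the deepest tags without an annotation are known sequences, which were named after their values had been seen. One was the main tag of let-7g-5p, with 135427 reads in catagen and 169137 in telogen (-0.26), and another that of miR-29a-3p (-0.22). Both lie near the other let-7 arms and the centre of all arms.

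Pieces of different tRNAs, which also differed in length, moved in opposite directions. Over all tags without an annotation, the log2 ratio was -0.57 at 31 nt, +0.57 at 26 nt and +0.17 at 22 nt. The part of length in the differences between these tRNAs was not tested. The following pieces come from the 5′ ends of tRNAs and rRNA or, for 5.8S rRNA, from near the 3′ end.
tRNA-Gly 5′ piece: gcattggtggttcagtggtagaattc
tRNA-Gln 5′ piece: ggttccatggtgtaatggttag
28S rRNA 5′ piece: cgcgacctcagatcagacgtg
5.8S rRNA 3′ piece: tcctcccggggctacgcctgtct
The 26-nt tRNA-Gly piece had 30387 reads in catagen, 119848 in telogen and 16078 in anagen, a log2 ratio of +1.40. Its family narrowed around this length, as tags of 30 nt or more were 14.1% of the family in catagen and 1.77% in telogen. The 31-nt piece of tRNA-Glu, by contrast, had 82942 reads in catagen, 14047 in telogen and 65709 in anagen (-3.14). Its whole family had a log2 ratio of -1.86, and its mean length went from 30.8 to 28.7 nt. The 22-nt tRNA-Gln piece had 139 reads in catagen (7.67 rpm), 2584 in telogen (95.6 rpm) and 2182 in anagen (136 rpm), a log2 ratio of +3.64. Its family had 1696 reads in catagen and 12073 in telogen (+2.25), at 93.6 rpm, 447 rpm and, in anagen, 605 rpm. Catagen was thus the low library for this piece, and telogen lay below anagen.

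Pieces of rRNA differed widely among themselves. The 23-nt piece of 5.8S rRNA had 61 reads in catagen, 3489 in telogen and 2401 in anagen, a log2 ratio of +5.26 (+4.90 to +5.65). Catagen was the low library here, and its family had a mean length of 27.7 nt in catagen, 24.1 nt in telogen and 23.5 nt in anagen. The 21-nt piece from the start of 28S rRNA, the deepest of these, had 43595 reads in catagen and 87974 in telogen (+0.44) and was not called. A 23-nt piece from the start of 18S rRNA changed its last base between the libraries.
18S rRNA 5′ piece: tacctggttgatcctgccagtaG
18S rRNA 5′ piece, last base changed: tacctggttgatcctgccagtaA
The tag that ends in G had 7255 reads in catagen, 258 in telogen and 409 in anagen. The tag with G23A had 2 reads in catagen, 6555 in telogen and 0 in anagen. The changed tag was 0.0276% of the pair in catagen and 96.2% in telogen, whereas both tags together had a log2 ratio of -0.67. The whole family with the same first 18 bases had 9941 reads in catagen and 14363 in telogen, a log2 ratio of -0.05.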

How the data were processed

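Small RNA libraries of goat skin, 1 per stage, were sequenced by Solexa. The authors removed low-quality reads, adaptor contaminants, poly(A) reads and reads under 18 nt and collapsed the clean reads. The deposited values are the count of reads of each tag, without normalisation. The read counts and percent of reads removed come from a filtering record that was also deposited. No alignment enters these values.

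Counts were scaled to reads per 1000000 clean reads (rpm), and a value of 0 was set to 0.01. Audic and Claverie's exact test, two-sided (scipy 1.17.1, pandas 2.3.3) was applied per tag and per arm, with calls at an absolute log2 ratio above 1 and a p limit of 0.01. The scaling and the test follow the methods of the study, and the limits its classes of ratio and p. Ratio intervals are Clopper-Pearson intervals and share intervals Wilson intervals, at 95%. Change of mean length is in nt.

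The study annotates tags by miRNA, in a list of which the copy used is shortened. Listed tags that overlap by 14 nt or more were joined, and other tags were given to an arm where they share 18 bases with it, start within 3 bases and add at most 3. Arms under 1 rpm in both libraries were left out, a floor not applied to single tags. Named arms were the 10 deepest, and the 10 highest and 10 lowest called arms with at least 100 reads in all and 10 in each library, beside the list members. Members and lists were chosen with earlier results of these data known. Calculations were tested on simulated data. edgeR 4.0.16 served only as an alternative, with an assumed coefficient of variation.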

Additional observations from a re-analysis of the deposited data

How the results depend on the processing

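No paired analysis was possible because each stage has 1 library, and for the same reason no replicate could be left out. Of the 25668 called tags, a minimum of 100 reads left 7338, the fold alone gave 40768, and edgeR, run with a biological coefficient of variation set to 0.4, gave 6364 (2920 higher, 3444 lower). The other alternatives gave 17129 (tags of 21 to 29 nt only) to 30121. Of the 42 called arms, 4 were left at that coefficient of variation (1 higher, 3 lower), and 31 to 52 elsewhere. Of the 24964 calls without annotation, 7083 were left at 100 reads. The 20 named arms past the limits kept their direction in all 274 comparisons. Settings that changed only the p, the limit or the minimum of reads reused the same ratio, so there the direction was fixed in advance. A scaling moved all ratios by the same amount. The call was lost in 21 comparisons, of which 16 were at the coefficient of 0.4. The rest were miR-2478 (-0.37) and miR-9-5p (0.69) on listed tags only, miR-193a-3p (0.55) on tags of 21 nt or longer and of 21 to 24 nt, and miR-299-5p (0.71) on its leading tag only. With distinct tags in place of reads the log2 ratio was -0.081 at 18 to 19 nt, 0.46 at 20 to 22 nt (reversed from -0.23), 0.56 at 23 to 29 nt and -0.16 at 30 to 44 nt. With all tags it was -0.57, -0.21, 0.36 and -0.55. Without miRNA arms it was -0.83, 0.093 (reversed) and 0.49 in the first 3 ranges. Of 22 miRNA families whose mean length moved by 0.1 nt or more (14 shorter, 8 longer), 14 did so on tags of 21 nt or longer (6 shorter, 8 longer), where let-7i-5p moved by -0.02 nt. The share with a moved 5′ end changed by -0.12 points, by -0.0018 points without let-7a-5p and by -0.52 points without the muscle arms. Leaving out the muscle arms, restricting tags to 21 to 29 nt or arms to 21 to 24 nt, and leaving out tags 1 base from a deeper tag (23007 calls), were chosen after seeing the data. Without replicates, the cause of these changes was not tested.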

Other observations

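Arms with a shared seed did not always have like ratios. The seed CAGTGCA was carried by miR-152-3p (-1.08) and miR-148a-3p (6507 reads in catagen and 6524 in telogen, -0.57), and their sum went from 3760 to 1854 rpm. The seed ACTGGCC of miR-193a-3p (+1.23) and miR-193b-3p (+0.39) summed to 528 rpm in catagen and 840 rpm in telogen. MiR-10a-5p and miR-10b-5p, which share ACCCTGT and come from Hox gene clusters, summed to 2195 rpm in catagen and 2228 rpm in telogen. The 3 tested arms with the seed AGCAGCA lay apart, miR-15a at +0.06, miR-424 at -0.24 and miR-497 at -0.81, with a sum at -0.26. None of these sums was tested.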
